A study of Mus musculus with 8 samples.

Results

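Olfactory receptor transcripts were read on expression arrays of whole mouse kidney RNA. The receptors were chosen by their signal: the array annotation had to name an Olfr gene for a probe, and the scanner software had to mark that probe as well above background on 4 or more arrays out of 8, in either group. That rule kept 196 of 1169 olfactory receptor probes (16.8%), for 193 of the 1076 Olfr genes on the array, while 36493 of all 55649 probes (65.6%) met the same criterion. The CD-1 mice, an outbred stock, belonged to a study of the kidney effects of the immunosuppressant tacrolimus, which blocks calcineurin. The TAC group received 1 mg/kg of tacrolimus a day for 28 days (4 kidneys) and the CTL group received physiological serum (4 kidneys). RNA of the total kidney was labelled with Cy3 and each sample was hybridised alone on 1 array; the labels give neither age nor sex. All 10 kidney markers examined, among them Umod of the thick ascending limb and Slc34a1 of the proximal tubule, were detected in both groups, and none was called different.

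Olfactory receptors are G protein-coupled receptors and form the largest gene family of the mouse. In the nose, each olfactory sensory neuron expresses 1 receptor, which acts through the G protein subunit Golf (Gnal), adenylate cyclase 3 (Adcy3) and a cyclic nucleotide-gated channel. Some of these receptors are also made outside the nose: Olfr78 in renal juxtaglomerular cells responds to short-chain fatty acids and bears on renin release, and Olfr1393 has been linked to glucose reabsorption in the proximal tubule. The genes are small, their coding part usually lies in 1 exon, and they sit in clusters whose members resemble each other in sequence.

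The probes are 60-base oligonucleotides, and their sequences are given here because each signal was read from the stretch that its probe covers. The mm9 positions are those of the array annotation, and only probes placed inside the coding sequence are printed. That placement was inferred from the probe's position on a gene model, with models of about 1 kb taken as coding. The probes of Olfr544, Olfr558, Olfr78, Olfr1393, Olfr90 and Olfr1466 could not be placed inside the coding sequence in this way and may read other parts of the transcript. The probes of Olfr1270 (chr2:89989534-89989593, minus strand) and Olfr339 (chr2:36277335-36277394, plus strand) belong to the genes that were called different between the groups.

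Olfr1270: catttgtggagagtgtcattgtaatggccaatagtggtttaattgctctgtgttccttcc

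Olfr339: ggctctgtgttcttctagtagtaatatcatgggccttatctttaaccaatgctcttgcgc

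The probes of Olfr1368 (chr13:21234026-21234085, minus strand), Olfr373 (chr8:74624499-74624558, plus strand) and Olfr965 (chr9:39527651-39527710, plus strand) read the end of the last membrane-spanning stretch, where olfactory receptors share a conserved motif. Capitals mark a pattern that was searched on both strands: AACCC, any 2 bases, T, any base, AT, any base, TA.

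Olfr1368: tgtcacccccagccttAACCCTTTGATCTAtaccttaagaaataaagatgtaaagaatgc

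Olfr373: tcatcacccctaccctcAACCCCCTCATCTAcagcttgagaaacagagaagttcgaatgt

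Olfr965: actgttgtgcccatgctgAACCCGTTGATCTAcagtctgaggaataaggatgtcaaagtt

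This motif stood on the probe strand of 12 of the 196 detected probes (6.12%) and of 33 of the 973 other Olfr probes (3.39%), against 59 of all 55649 probes (0.106%). On the opposite strand no Olfr probe held it. Detected Olfr probes had a median GC content of 45%, against 38.3% for the other Olfr probes and 43.3% for all probes. A run of 20 identical bases in a probe of another gene was found for 25 detected probes (12.8%) and for 210 of the other Olfr probes (21.6%). For these 25 the signal cannot be assigned to 1 gene from the probe alone, and they include the probes of Olfr1393, Olfr10, Olfr281, Olfr282 and both probes of Olfr1382.

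Most receptor probes gave no detectable signal. Of the 1169 Olfr probes, 782 were well above background on no array and 126 on all 8, while between 12 and 36 probes fell at each count from 2 to 7 arrays and 136 probes were seen on 1 array only. Probes at the edge of the rule differed little in signal: the 12 probes detected on 4 arrays had mean levels between -6.30 and -5.68, and the 19 probes detected on 3 arrays lay between -6.56 and -5.86. A level here is the log2 processed signal minus the log2 of the array's 75th percentile of non-control signals, so 0 is that percentile. Per array, 243, 201, 219 and 180 Olfr probes were detected in TAC kidneys, against 247, 205, 187 and 196 in CTL kidneys. The ranges of the groups overlapped. Among 308 negative control spots per array, which carry no mouse sequence, between 0.32% and 3.25% were marked well above background in TAC arrays and between 0.65% and 1.62% in CTL arrays. Other chemosensory receptor families were detected at shares of the same order: 40 of 179 vomeronasal type 1 receptor probes (22.3%), 20 of 122 vomeronasal type 2 probes (16.4%), 4 of 15 trace amine receptor probes (26.7%) and 9 of 40 taste receptor probes (22.5%).

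**Figure D1:**
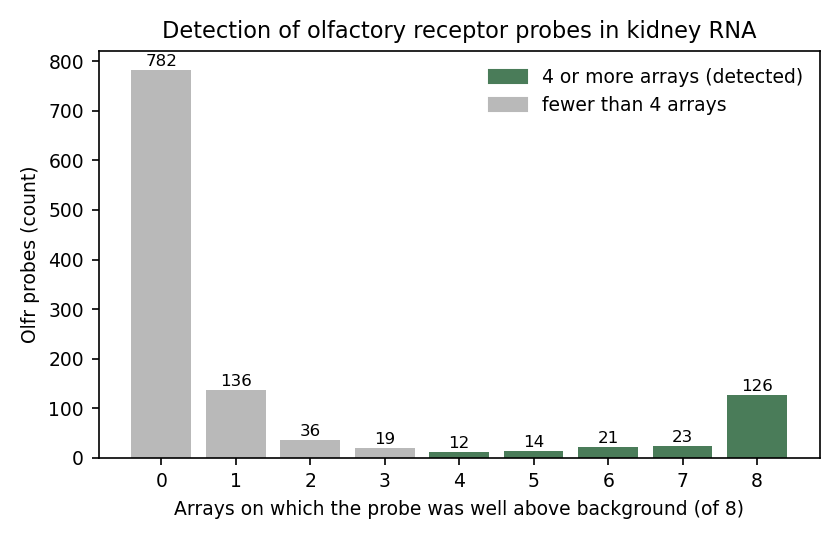
Olfr probes by the number of arrays on which they were well above background. The x axis counts arrays (of 8) and the y axis counts probes; green bars are the 196 probes detected on 4 or more arrays. The tallest bars stand at 0 arrays (782), 1 array (136) and 8 arrays (126).

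Signals of detected probes were mostly dim. Their median level was -4.90, that is 3.34% of the 75th percentile signal, and 146 of the 196 lay below -4. Another 33 lay between -4 and -2, 17 lay above -2, and 6 exceeded the 75th percentile of the arrays. Signals of different probes depend on the probe as well as on the transcript, so their order is not an order of transcript amounts. The 6 brightest probes were those of Olfr544, Olfr1368, Olfr1466, Olfr373, Olfr1252 and Olfr1229, with mean levels of 2.34, 1.35, 1.14, 1.02, 0.35 and 0.03. Olfr544, a receptor for azelaic acid that has been studied in fat and liver, thus gave 505% of the 75th percentile signal, and its probe lies at chr7:109632628-109632687. Its level was 2.25, 2.34, 2.49 and 1.80 in TAC kidneys, against 2.45, 2.45, 2.57 and 2.34 in CTL kidneys, and the ranges overlapped.

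Repeat spots set the precision of dim probes. The probes of Olfr53, Olfr868, Olfr74 and Olfr1307 were each printed 10 times per array, and 76 of 76, 76 of 78, 77 of 77 and 70 of 77 of their usable spots were well above background. The SD between spots of 1 array had a median of 0.17, 0.30, 0.38 and 0.30 log2 units for these probes. Between arrays of a group the SD of their averaged level was 0.08 to 0.22. Single-spot probes, which make up most of the set, carry the spot error in full.

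Where a detected receptor had a second probe, that probe was mostly not detected. Of the 193 genes, 23 had a second probe on the array. Pairs with neither probe detected are left out by the rule, so the counts are not a rate of agreement. Of all Olfr probes, 16.8% were detected. In 3 of them (Olfr456, Olfr536 and Olfr1382) both probes were detected, and in the other 20 the second probe was not, being well above background on no array in 13 and on 1 to 3 arrays in 7. In 6 genes the probes overlapped on the transcript, with identical bases in the shared stretch, and in 5 of these 6 only 1 probe was detected. The pairs of Olfr373, Olfr965 and Olfr456 are shown with the shared bases in capitals, because the members of each pair read stretches that overlap.

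Olfr373, bright probe, chr8:74624499-74624558: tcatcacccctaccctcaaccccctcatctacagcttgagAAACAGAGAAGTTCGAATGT

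Olfr373, dark probe, chr8:74624539-74624598: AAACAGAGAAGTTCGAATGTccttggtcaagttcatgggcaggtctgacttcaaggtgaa

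Olfr965, detected probe, chr9:39527651-39527710: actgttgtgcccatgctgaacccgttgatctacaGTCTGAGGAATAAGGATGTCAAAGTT

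Olfr965, other probe, chr9:39527685-39527744: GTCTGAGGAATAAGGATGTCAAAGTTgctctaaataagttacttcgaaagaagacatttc

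Olfr456, brighter probe, chr6:42436847-42436906: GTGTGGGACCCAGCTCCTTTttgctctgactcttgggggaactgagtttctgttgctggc

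Olfr456, second probe, chr6:42436887-42436946: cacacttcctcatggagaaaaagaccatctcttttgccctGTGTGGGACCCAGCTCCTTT

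The bright probe of Olfr373 read 1.06, 1.07, 0.88 and 0.43 in TAC kidneys, against 1.32, 1.11, 1.32 and 1.01 in CTL kidneys. Its neighbour, 40 bases further along the same strand with 20 bases in common, read -8.70, -8.26, -8.31 and -4.32 in TAC kidneys, against -8.64, -8.28, -8.13 and -8.30 in CTL kidneys. All but 1 of these readings were near the median of the negative controls, which lay between -8.58 and -8.07 on TAC arrays and between -8.55 and -8.03 on CTL arrays. For Olfr965 the detected probe averaged -5.38 over the 8 arrays and the other, with 26 shared bases, -7.94, but the detected probe also shares runs of 20 or more bases with probes of Olfr145, Olfr25, Olfr467, Olfr877 and Olfr923. For Olfr456 the probes averaged -4.26 and -5.01, both on all 8 arrays. The other 170 genes had 1 probe each. Signal depends on the probe as well as on the transcript, and which of them set these readings was not tested.

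**Figure D2:**
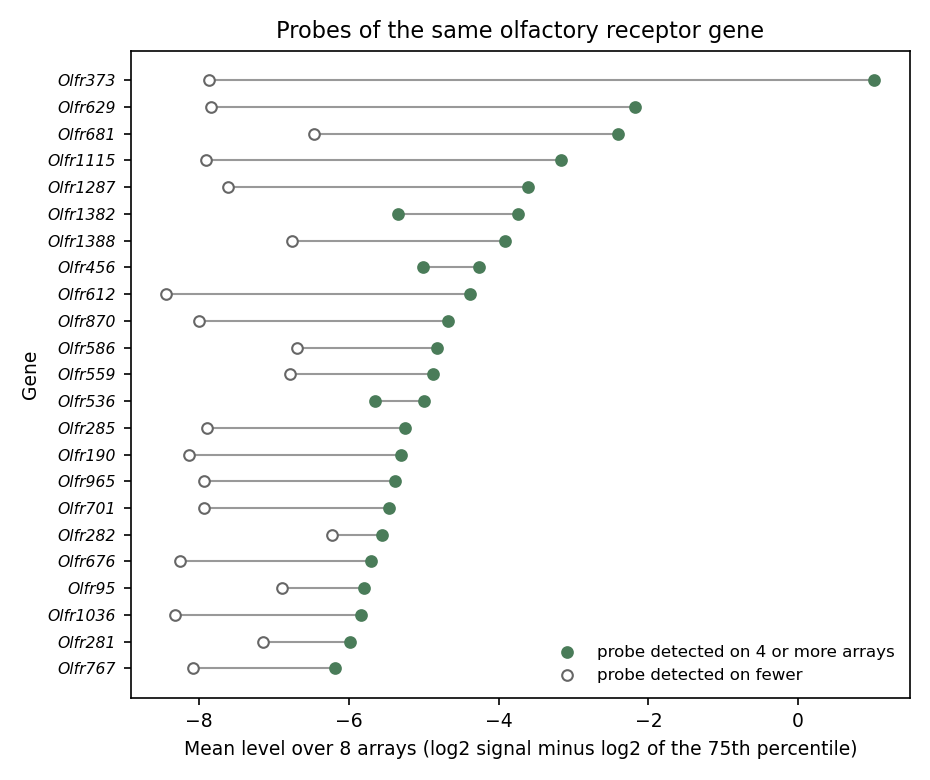
Mean level over 8 arrays of each probe of the 23 detected receptor genes with 2 probes. The x axis is the level in log2 units relative to the 75th percentile, filled points are probes detected on 4 or more arrays, and a line joins the probes of a gene. In 20 genes 1 point is open, that is, 1 of the probes was not detected.

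Detected receptors lay on most chromosomes that carry Olfr genes. The largest numbers were 50 of 231 genes on chromosome 7, 39 of 276 on chromosome 2, 20 of 74 on chromosome 11 and 19 of 133 on chromosome 9, while none of the 6 genes on chromosome X was detected. Neighbours tended to be detected together: 84 of 190 placed detected genes (44.2%) had a detected gene as the next Olfr gene, against 250 of 879 other Olfr genes (28.4%). Some neighbours have probes that share a run of 20 bases, so their detections may not be separate. Among these are Olfr281 and Olfr282, Olfr476 and Olfr477, Olfr611 and Olfr612, and Olfr1393 and Olfr10. The part of shared runs in these counts was not tested. The longest runs held 4 neighbouring genes, namely Olfr1384, Olfr1383, Olfr1382 and Olfr1380 on chromosome 11, Olfr94 to Olfr97 on chromosome 17, and Olfr1347 to Olfr1350 on chromosome 7. A probe of another gene detected on all 8 arrays lay within 20 kb of 18 of 193 placed detected probes (9.33%) and of 51 of 968 other Olfr probes (5.27%). On the same strand the counts were 5 (2.59%) and 21 (2.17%). The closest was Ubd, a ubiquitin-like modifier induced in inflamed tissue, whose probe lay 1.15 kb from that of Olfr94 on the opposite strand. Ubd was called higher by 4.88 log2 units in TAC kidneys (limma, adjusted p = 0.0404), whereas Olfr94 differed by 0.08 and Olfr95, 15.2 kb from the Ubd probe, by 0.51, and neither was called. For Olfr95, TAC 1 alone lay above the CTL values, at -3.63 against -5.83, -5.73 and -6.99 on the other TAC arrays and -5.82, -5.91, -5.67 and -6.84 in CTL kidneys. The second probe of Olfr95, with 27 shared bases, read -6.54 on TAC 1 and was not detected there.

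The comparison of TAC with CTL kidneys asks which receptor transcripts differ after tacrolimus. Of 193 receptor genes, 2 were called at an adjusted p under 0.05 (1.04%), both higher in TAC kidneys, against a background of 0.227% over the 25127 genes and transcripts tested together (0.187% higher and 0.0398% lower). These were Olfr1270 and Olfr339, orphan receptors for which no ligand is named here. Both passed the detection rule through the TAC arrays, since Olfr1270 was detected on 4 TAC and 0 CTL arrays and Olfr339 on 4 TAC and 1 CTL array, so nothing is read from this share. The 183 genes detected on at least 2 arrays of each group leave out both called genes, so that none of the 183 was called follows from the cut. Of the 183, 40 had an unadjusted limma p under 0.05 (21.9%, against 15.5% of all genes), 2 higher and 38 lower.

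Olfr1270 stood at -5.34, -3.84, -4.82 and -5.02 in TAC kidneys, against -7.47, -8.24, -8.10 and -7.58 in CTL kidneys. The groups did not overlap, and the CTL values lay near the negative controls. In processed intensity units the TAC arrays read 26.1, 64.7, 23.8 and 23.8 and the CTL arrays 5.9, 2.9, 2.9 and 4.5. Since the CTL side was not well above background, a bound was taken. On the scale of processed signal the gene was at least 2.92-fold higher in TAC kidneys (fitted difference 3.09 ± 0.33 log2 units, SE, limma adjusted p = 0.0188, n = 4 each). The bound sets the TAC mean against the dimmest signals that the CTL arrays marked as well above background. Those stood at -7.29 on CTL 1, against -6.01, -5.84 and -6.08 on the other CTL arrays. The bound does not hold for other processing, where the difference was 0.62 log2 units after normexp correction and 1.00 in the deposited values.

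Olfr339 stood at -4.13, -3.16, -3.97 and -3.50 in TAC kidneys, against -6.05, -6.88, -5.98 and -6.95 in CTL kidneys. Again no CTL value reached the lowest TAC value. CTL 1 alone was marked well above background in its group, so the size of the difference rests in part on CTL readings below detection. The fitted difference was 2.77 ± 0.30 log2 units (SE, limma adjusted p = 0.0191, n = 4 each), on the scale of processed signal. Its neighbour Olfr338, the next receptor along chromosome 2, differed by -0.34 and was not called (adjusted p = 0.655). Both calls were lost by limma without CTL 2, without CTL 4 and with replicate number as a block, and that of Olfr1270 also without CTL 3 and after normexp background correction, where the difference was 0.62 for Olfr1270 and 0.86 for Olfr339. In the deposited values, which had no background subtracted, the differences were 1.00 and 1.24, with both genes called.

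**Figure D3:**
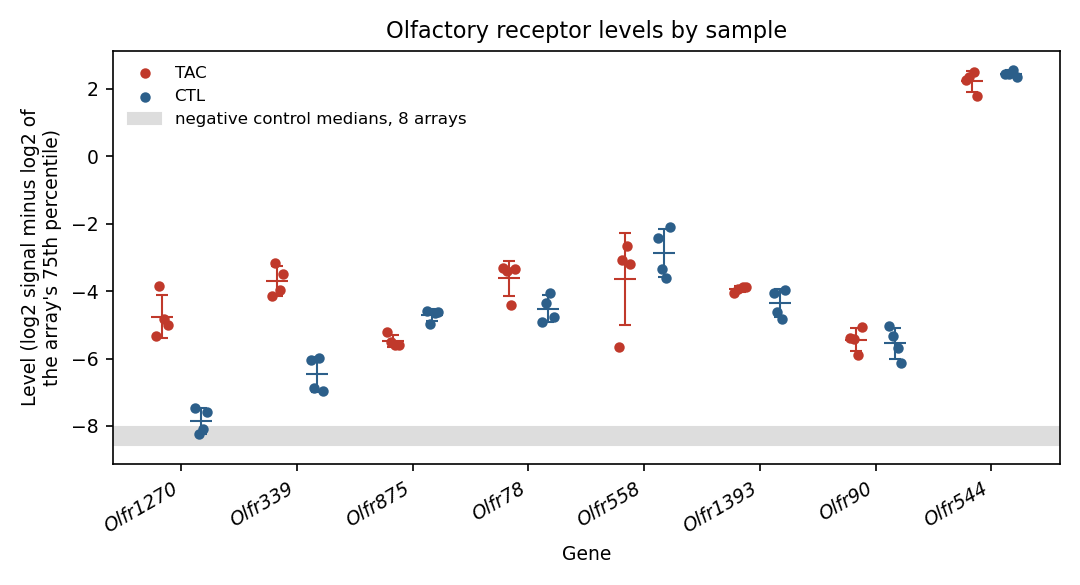
Levels of 8 receptor genes on each array, TAC (red) left of CTL (blue), in log2 units relative to the 75th percentile; bars are mean and SD over 4 arrays and the grey band spans the negative control medians of the 8 arrays. Olfr1270 and Olfr339 separate the groups upward in TAC, Olfr875 separates them downward without being called, and Olfr1270 in CTL kidneys touches the band.

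Receptors with a described kidney or non-olfactory role were looked up whatever their values. Of 21 such genes 18 were on the array and 5 were detected, namely Olfr78, Olfr558, Olfr1393, Olfr90 and Olfr544; the 13 others included Olfr16, a receptor studied in sperm, and Olfr691, both on no array. None of the 5 was called. Olfr78 read -3.32, -3.41, -4.41 and -3.35 in TAC kidneys, against -4.93, -4.35, -4.05 and -4.76 in CTL kidneys. TAC 3 fell among the CTL values and the other TAC arrays lay above all of them. The difference was 0.90 ± 0.29 log2 units (SE, limma adjusted p = 0.213), with a 95% interval of 0.25 to 1.56. The juxtaglomerular markers went the other way: Ren1, the renin gene, averaged 2.10 ± 0.58 in TAC and 3.25 ± 0.69 in CTL kidneys (SD, n = 4 each), and Akr1b7, an enzyme of the same cells, 0.24 ± 0.48 in TAC and 1.70 ± 0.58 in CTL kidneys. Neither marker was called, and their part in the Olfr78 values was not tested. In bulk kidney RNA, fewer cells of a type and less RNA per cell cannot be told apart.

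Olfr558, another receptor for short-chain fatty acids, varied widely among TAC kidneys at -5.65, -3.08, -2.65 and -3.20, against -2.42, -3.35, -3.61 and -2.11 in CTL kidneys. Its difference of -0.77 ± 0.65 log2 units (SE, limma adjusted p = 0.586) was within that spread, and TAC 1 alone lay far below the rest. Without TAC 1 the difference was -0.10. Olfr1393 read -4.05, -3.94, -3.87 and -3.87 in TAC kidneys, against -4.06, -4.61, -4.82 and -3.95 in CTL kidneys. The ranges overlapped and the difference was 0.43 ± 0.19 (SE, limma adjusted p = 0.334). Its probe shares a run of 20 or more bases with the probe of Olfr10. Olfr90 differed by 0.11 and Olfr544 by -0.23, with adjusted p-values of 0.860 and 0.468.

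Below the threshold most receptors leaned lower in TAC kidneys. An unadjusted p under 0.05 was reached by 45 of 193 genes (23.3%), 5 higher and 40 lower, against backgrounds over all genes of 15.5%, 7.04% and 8.42%. The groups did not overlap in 22 genes (11.4%), 3 higher and 19 lower, against 10.1%, 4.35% and 5.75% of all genes. In 145 of 193 genes (75.1%) the TAC mean was lower, against 60.5% of all genes, and the median difference was -0.17 log2 units against -0.05. With normexp background correction and an offset of 50, the median was -0.03 for the receptors and for all genes, and 63.7% of the receptors were lower against 58.7% of all genes. In the deposited values the median was -0.11 for the receptors and -0.03 for all genes, with 149 receptors (77.2%) lower against 57.5% of all genes.

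The brighter probes were also taken apart, in a split made after the values were seen. The 50 genes with a mean level above -4 were all detected on all 8 arrays. Of these, 45 (90%) were lower in TAC kidneys, against 61.5% of all genes in that level range. Their median difference was -0.29, with a range of -1.09 to 0.18. None was called (lowest adjusted p 0.188), while 23 (46%) were lower at an unadjusted p under 0.05, against 8.46% of the 20390 genes of the same level range. Relative to the CTL mean, the median of these 50 genes was -0.20, -0.22, -0.12 and -0.47 on the TAC arrays, against 0.05, -0.03, 0.11 and -0.11 on the CTL arrays. For all genes of that level range it was -0.09, -0.09, -0.02 and -0.01 on TAC arrays, against -0.01, 0.03, 0.03 and -0.04 on CTL arrays. Among the 50 receptor medians, the following stood out. For the receptors TAC 3 and CTL 4 nearly met, and TAC 4 was the lowest. The median difference of the 50 receptors was -0.19 after normexp correction, -0.26 in the deposited values and -0.21 without TAC 4. The count of 23 was 14 after normexp correction, 13 without CTL 3, 14 without TAC 4 and 15 without CTL 1. Vomeronasal receptors were not split by level. Of 57 tested genes 43 were lower, with a median difference of -0.21, against 145 of the 193 olfactory receptors of all levels and a median of -0.175. At an unadjusted p under 0.05, 12 of the 57 were lower, and 1 of the 57 was called, higher in TAC kidneys. The local background of the arrays moved with the groups, at 19.3 to 20.5 intensity units in TAC and 21.8 to 22.1 in CTL arrays, and its part in the lean was not tested. TAC arrays lay in 1 row of the slide and CTL arrays in the other, so that row and treatment cannot be told apart.

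**Figure D4:**
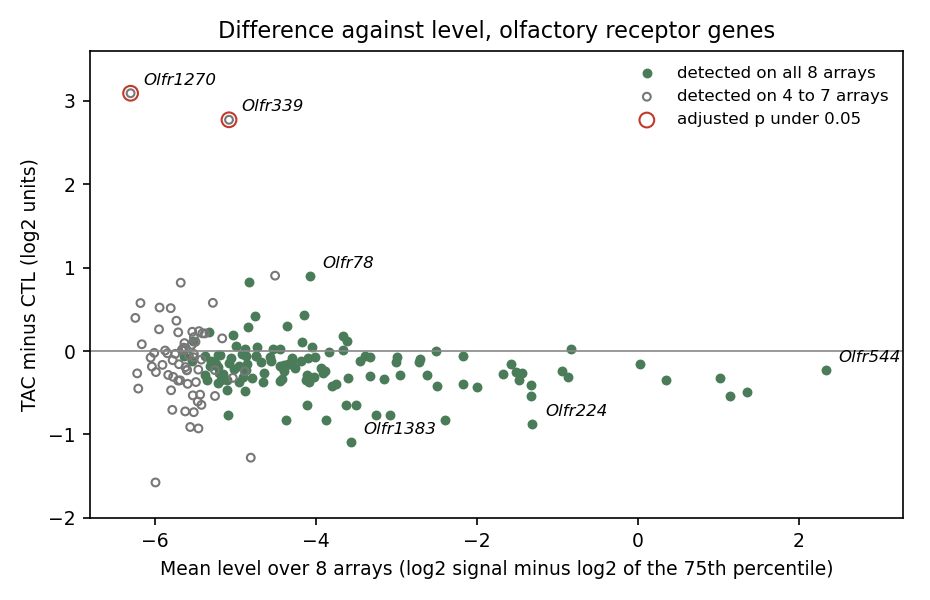
Difference between TAC and CTL means (y axis, log2 units) against the mean level over 8 arrays (x axis, log2 units relative to the 75th percentile) for 193 receptor genes. Filled points were detected on all 8 arrays, and red rings mark the genes called. Above a level of -4, 45 of 50 points (90%) lie below 0, against 61.5% of all genes tested in that range. The called genes are at the dim end.

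The genes with the lowest p after the called ones were lower in TAC kidneys, except Olfr767. Olfr875 read -5.21, -5.51, -5.60 and -5.59 in TAC kidneys, against -4.58, -4.98, -4.64 and -4.61 in CTL kidneys. The groups did not overlap, and the difference of -0.77 ± 0.13 log2 units (SE, limma adjusted p = 0.0553) missed the threshold when all genes were tested. It passed when only genes detected on all 8 arrays were tested, which was 1 of 18 fits. The difference of Olfr875 was -0.20 after normexp correction and -0.37 in the deposited values, without a call in either. Olfr1257, Olfr282, Olfr209, Olfr426, Olfr1307, Olfr392 and Olfr1341 were lower by 0.29 to 0.91 log2 units without being called (limma adjusted p 0.0996 to 0.190). After normexp correction their differences ran from -0.30 (Olfr392) to -0.04 (Olfr1307), with those of Olfr1257, Olfr282 and Olfr426 at -0.13, -0.16 and -0.13. Olfr767 differed by 0.58 (limma adjusted p = 0.181). It was detected on 3 TAC arrays and 1 CTL array, so it passed the detection rule mainly through the TAC arrays. The second probe of Olfr767 was detected on no array. Olfr1307, among the receptors with 10 spots per array, read -5.45, -5.57, -5.46 and -5.61 in TAC kidneys, against -5.12, -5.30, -5.20 and -5.31 in CTL kidneys. Its groups did not overlap, at a difference of -0.29 ± 0.09 log2 units (SE), but after normexp correction the difference was -0.04.

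The run of receptors on chromosome 11 held some of the larger differences. Olfr1384 read -5.36, -4.97, -4.94 and -6.52 in TAC kidneys, against -4.22, -3.82, -3.79 and -4.84 in CTL kidneys. Olfr1383, the next gene, read -4.08, -3.37, -3.88 and -5.11 in TAC kidneys, against -2.98, -2.76, -2.95 and -3.37 in CTL kidneys. In both genes TAC 4 was lowest. The groups did not overlap for Olfr1384, and for Olfr1383 TAC 2 and CTL 4 met at -3.37. Their differences were -1.28 ± 0.38 and -1.09 ± 0.33 log2 units (SE, limma adjusted p 0.187 and 0.198). Olfr1384 was called in 1 of 17 fits, that with replicate number as a block (limma adjusted p = 0.0446). Olfr1382, which follows, was lower by both of its probes, by 0.39 and 0.72 log2 units, without a call, and Olfr1380 at the end of the run differed by -0.11. The runs on chromosomes 17 and 7 differed by no more than 0.51 log2 units in any gene, and none of their genes was called. On chromosome 15, Olfr281, named after the values were seen, was detected on 1 TAC and 4 CTL arrays and so passed the detection rule through the CTL arrays. It read -7.14, -6.21, -5.64 and -8.13 in TAC kidneys, against -5.66, -5.64, -5.39 and -4.13 in CTL kidneys, and was not called (adjusted p = 0.250). Its probe shares a run of bases with that of its neighbour Olfr282.

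Among the brightest probes, those of Olfr1368, Olfr1252, Olfr522 and Olfr319 had differences of -0.49, -0.35, -0.32 and -0.24 with unadjusted p-values of 0.0150, 0.0277, 0.0247 and 0.0368, and none was called. Olfr1368 read 1.29, 1.20, 1.20 and 0.74 in TAC kidneys, against 1.55, 1.51, 1.94 and 1.40 in CTL kidneys, with no overlap. Olfr373, Olfr1466 and Olfr1229 differed by -0.33, -0.54 and -0.16 with overlapping groups, and Olfr1443 by 0.02. Olfr224 read -0.26, -1.27, -0.36 and -5.09 in TAC kidneys, against -0.64, 0.05, -1.31 and -1.58 in CTL kidneys. Its difference of -0.87 rested on TAC 4, and without that array it was 0.24.

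Genes that act with olfactory receptors in the nose, and some relatives of them, were followed as a list of 33. Of these, 27 were detected and tested. None was called by limma, 3 had an unadjusted p under 0.05 (15.5% of all genes did), and the median difference was 0.02 log2 units. Gnal averaged -3.03 ± 0.22 in TAC and -3.26 ± 0.44 in CTL kidneys, and Adcy3 -4.94 ± 0.27 in TAC and -5.23 ± 0.28 in CTL kidneys (SD, n = 4 each). Among the receptor-transporting proteins, Rtp1 and Rtp2 carry olfactory receptors to the cell surface. Rtp1 was detected on no array. Rtp2 differed by -0.35 (adjusted p = 0.256), Rtp3 by -0.16 (adjusted p = 0.932) and Rtp4, which interferon also induces, by 0.71 (adjusted p = 0.125). Arrb2, a beta-arrestin that quenches receptor signalling, differed by 0.58 (adjusted p = 0.221). Cnga2, a subunit of the olfactory channel, averaged -3.27 ± 0.13 in TAC and -3.09 ± 0.12 in CTL kidneys, whereas the channel subunit Cnga4 and the chloride channel Ano2 were not detected.

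Markers of olfactory sensory neurons were partly present. Of 8 such genes 5 were detected, including Omp at -2.93 ± 0.08 in TAC and -3.15 ± 0.59 in CTL kidneys (SD, n = 4 each). Omp, Cnga2, Gnal and Adcy3 were read on all 8 arrays and Gng13 on 5. Cnga4 was well above background on 1 TAC and 2 CTL arrays, Stoml3 on 1 TAC array and Gap43 on none, so these missed the detection rule. None of the markers of macrophages and adipocytes was called. At an unadjusted p under 0.05, 6 of 7 macrophage genes and 5 of 5 adipocyte genes had higher TAC means, against 7.04% of all genes, and the groups overlapped in 4 of the 5 adipocyte genes. The macrophage list summed to 5.37 to 5.79 in TAC and 4.98 to 5.30 in CTL kidneys, and the adipocyte list to 0.23 to 4.12 in TAC and -4.05 to 0.50 in CTL kidneys, on the log2 scale of the summed signal. Olfr1270 and Olfr339 were highest on TAC 2, as were 5 of the 7 macrophage genes and the T cell genes Cd3e, Cd3d, Cd2 and Lck. Of these 4 T cell genes, 2 had higher TAC means at an unadjusted p under 0.05, and none was called. No B cell or urothelium gene examined reached that p. The 5 adipocyte genes were highest on TAC 4. Among the TAC arrays both receptors were lowest on TAC 1, where the macrophage genes Adgre1 and Csf1r were highest. The part of these cells in the receptor values was not tested.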

How the data were processed

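Total kidney RNA (0.2 µg a sample, RIN 9, per the labels) was hybridised to 1-colour Agilent arrays. The deposited scanner files hold intensity values for 62976 features per array, and per the file headers the processed signal was background-subtracted in Agilent Feature Extraction (version 10.7.3.1). The deposited series table holds log2 values that equal quantile-normalized median signals, and the submitters' processing notes name limma; it was used as an alternative. Array number, 4 per group, limits the precision. The labels do not say that each array is a separate animal, so the tests reflect only the variation among these 8 arrays.

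Here, levels were log2 processed signal minus that of the array's 75th percentile over 59305 non-control spots. Outlier-marked spots were dropped and spots of a probe averaged, a probe being detected on an array when at least 50% of them had the flag. Saturation marked no spot. Genes took their brightest detected probe over all arrays, and 25127 were tested with limma 3.58.1 in R 4.3.3 (lmFit, eBayes, Benjamini-Hochberg, called at an adjusted p under 0.05). The code was tested on simulated data.

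The receptors, lists and tests were chosen with earlier results of these data known. Named receptors are those called, the 14 with the lowest p, the 10 brightest, a list of receptors with roles outside the nose, and those with several detected probes. Alternatives were quantile and median scaling, normexp with an offset of 50, the deposited table, other filters, every probe alone, an intensity trend, array weights, replicate number as a block and each array left out. Probe positions are on mm9, and no sequence beyond the probes was used.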

Additional observations from a re-analysis of the deposited data

Results flagged for a closer look

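Within groups of 4 arrays, 1 reading stood apart from the other 3 by Dixon's test in 5 of 60 groups examined for 30 receptors (8.33%), where chance gives about 1 in 20. Olfr78 read -4.41 on TAC 3, against -3.41 to -3.32 on the other TAC arrays. Olfr426 read -6.49 on TAC 4, against -5.70 to -5.67 on the other TAC arrays. Olfr1368 read 0.74 on TAC 4, against 1.20 to 1.29 on the others of its group. Olfr1229 read -0.14 on TAC 1, with the other 3 TAC arrays all at -0.02. Olfr875 read -4.98 on CTL 2, with the other CTL arrays between -4.64 and -4.58.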

How the results depend on the processing

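The count of 2 receptors called was kept under quantile and median scaling, the deposited table, no filter, every probe alone, the intensity trend and array weights. It was 1 after normexp (Olfr339), 1 with the filter on all 8 arrays (Olfr875, lower in TAC), 1 with the replicate block (Olfr1384, lower in TAC) and 0 to 2 with each array left out. The set of receptors detected on at least 2 arrays of each group was added after the data were seen and was not refitted. It leaves out Olfr1270 and Olfr339, so its count of 0 calls was fixed by the cut and tests nothing. Over 17 fits each, adjusted p ran from 0.0117 to 0.0781 for Olfr1270 and from 0.0126 to 0.0625 for Olfr339. Over all genes the 57 calls became 285 after normexp, 180 in the deposited table, 32 without a filter, 151 with the filter on all 8 arrays, 37 with every probe alone, 221 with the intensity trend, 309 with array weights, 103 with the replicate block and 7 to 56 with each array left out. The causes were not tested. Arrays of the same replicate number correlated by 0.156, 0.021, 0.143 and 0.055 (deviations from group means), and numbers 1, 3 and 4 correlated best with their own number, a hint from the data and not the design. The signalling list had 0 calls throughout. The detected probes numbered 387 at 1 or more arrays, 126 on all 8 and 439 with the scanner's laxer flag for a positive and significant signal. Of 532 refitted differences for 30 named receptors, 511 kept direction and side of the threshold, 8 lost a call, 2 gained one and 11 changed sign, all uncalled: Olfr1443 was -0.030 with median scaling, -0.014 in the deposited table and -0.064 with array weights, and Olfr536 was -0.026 in the deposited table. With each array left out, Olfr1443 ran from -0.098 (without TAC 4) to 0.092, Olfr536 from -0.076 (without CTL 1) to 0.15, Olfr90 from -0.082 (without CTL 4) to 0.28 and Olfr224 from -1.37 to 0.24 (without TAC 4). Dim single-spot signals limit the values of many of these receptors.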
